A study of Mus musculus with 8 samples.

Results

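The 9 genes described here belong to the response of cells to interferon: Isg15, Ifit1, Ifit2, Ifit3, Mx1, Oas1a and Rsad2 are interferon-stimulated genes, and Irf1 and Irf7 encode interferon regulatory factors. They were taken by name, as every non-control probe that the array files assign to 1 of these genes, which gave 12 probes of the 55681 on the array. Isg15, Oas1a and Irf1 had 2 probes each and the other genes 1. The RNA came from NIH3T3 cells, a mouse embryonic fibroblast line, on 8 arrays in 3 groups. All cells were grown in 10% newborn bovine serum and held in 0.5% serum for 24 h. The no serum group (2 arrays) then received no cordycepin and no fresh serum. It is listed with 0.1% DMSO, the solvent, but its source label names starvation only, whereas that of the serum group names vehicle. The serum group (3 arrays) received DMSO and, 60 min later, fresh newborn bovine serum for 30 min. The cordycepin plus serum group (3 arrays) received 20 µM cordycepin in DMSO and the same serum after 60 min, so that cordycepin was present for 90 min. Cordycepin is 3′-deoxyadenosine, an adenosine analogue that lacks the 3′ hydroxyl through which RNA chains are extended. It was not applied without serum in these arrays. The comparison of cordycepin plus serum with serum asks how cordycepin altered expression in stimulated cells. The comparison of serum with no serum asks what the stimulus did without cordycepin.

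Type I interferons bind the Ifnar1 and Ifnar2 receptor and activate, through Jak kinases, a complex with Stat2 and Irf9 that binds the interferon-stimulated response element (ISRE) upstream of the stimulated genes. Irf3 and Irf7 are activated downstream of sensors of foreign nucleic acids and switch on the interferon genes, whereas Irf1 is itself induced by interferon through a gamma-activated site (GAS) and also binds ISRE-like sequences. In fibroblasts, many interferon-stimulated genes keep a low level of expression without infection.

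The promoters of these genes differ in which of these elements they carry, so the stretches just upstream of the start site are shown for the members with a measured difference, together with Ifit3 as the close relative of Ifit1. A window from 250 bases before to 50 bases after each annotated start was searched on both strands for the core of an ISRE, the letters GAAA, any 2 bases and GAAA again (TTTC, any 2 bases and TTTC on the other strand), and for the core of a GAS, TTC, any 3 bases and GAA, which reads the same on both strands. RefSeq (build GRCm38.p6) gave such windows for 8 of the 9 genes and no window for Mx1. Each line gives the 160 bases before the start, 5′ to 3′ on the strand of the gene, with matches in capitals.
Isg15, chr4:156200819-156200978, minus strand: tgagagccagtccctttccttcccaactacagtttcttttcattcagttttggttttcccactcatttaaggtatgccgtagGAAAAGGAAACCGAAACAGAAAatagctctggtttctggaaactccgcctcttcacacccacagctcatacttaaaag
Ifit1, chr19:34640729-34640888, plus strand: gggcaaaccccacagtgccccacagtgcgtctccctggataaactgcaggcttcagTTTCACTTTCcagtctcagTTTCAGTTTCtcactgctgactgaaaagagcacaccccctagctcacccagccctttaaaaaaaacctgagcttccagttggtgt
Ifit3, chr19:34583369-34583528, plus strand: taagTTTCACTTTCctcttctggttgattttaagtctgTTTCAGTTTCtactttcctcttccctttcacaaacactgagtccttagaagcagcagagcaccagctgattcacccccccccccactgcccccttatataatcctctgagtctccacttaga
Oas1a, chr5:120907526-120907685, minus strand: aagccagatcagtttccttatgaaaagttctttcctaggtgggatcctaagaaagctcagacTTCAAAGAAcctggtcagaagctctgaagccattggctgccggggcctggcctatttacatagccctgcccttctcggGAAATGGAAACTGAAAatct
Irf1, first start, chr11:53769854-53770013, plus strand: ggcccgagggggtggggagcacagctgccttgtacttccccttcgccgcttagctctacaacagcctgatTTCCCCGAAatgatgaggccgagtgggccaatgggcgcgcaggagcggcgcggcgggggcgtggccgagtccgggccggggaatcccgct

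The ISRE core was present in the windows of 5 members, against 3.99% of the 27025 genes with a window. Isg15 held 3 overlapping matches as 1 unbroken run, and Oas1a held 2 overlapping matches that ended at position -5, counted from the start. Ifit1 and Ifit3 each held 2 separate matches, all on the opposite strand, and Rsad2 held 1. The GAS core was present in 3 members, against 9.55% of all genes with a window. In Irf1 it began at position -90 from the first of 2 annotated starts, in Oas1a at -98, and in Ifit2 at -241 from the first of 2 starts. Neither set of letters was in the window of Irf7. These matches describe letters only and carry no measure of binding.

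**Figure D1:**
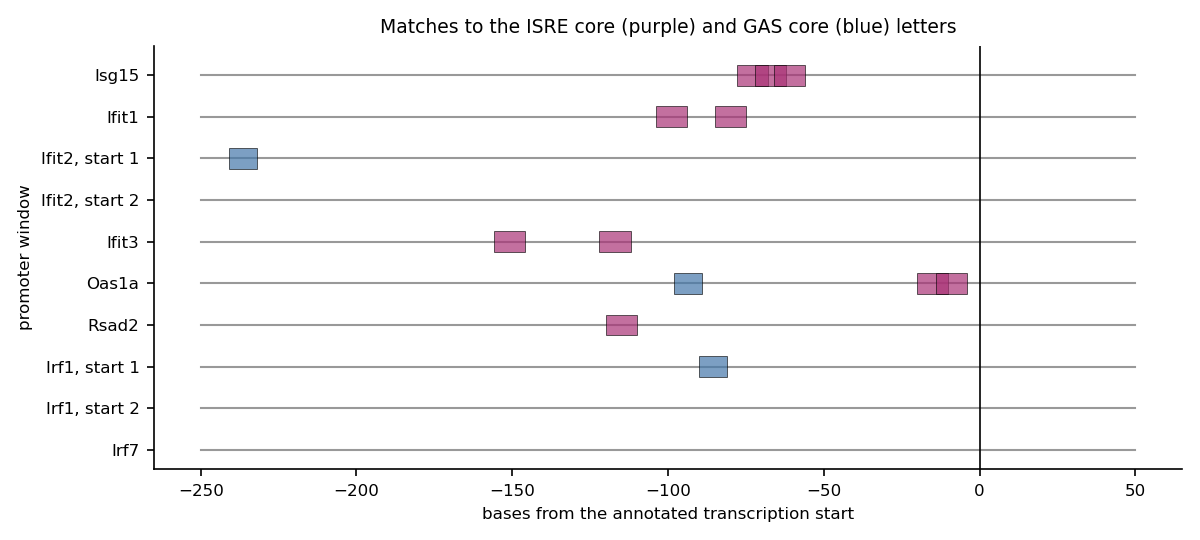
Matches to the ISRE core (purple) and the GAS core (blue) in the promoter windows of 8 members; the x axis is the distance in bases from the annotated start (vertical line at 0) and each row is 1 start. Isg15, Ifit1, Ifit3, Oas1a and Rsad2 carry ISRE cores, and the window at the first start of Irf1 carries a GAS core only.

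The level of a probe is given below as its log2 signal relative to the 75th percentile of all non-control spots on the same array, a percentile that lay between 350.5 and 802.2 signal units. Levels of different probes are not comparable with each other. Feature Extraction judged 51.1% to 57.1% of probes well above background per array, and arrays of the same group correlated at r = 0.992 to 0.995. Testing was limited to the 30859 probes for which all arrays of 1 group or more were well above background. A call, higher or lower, required an adjusted p under 0.05 in limma together with a log2 fold change of at least 1. All fold changes are relative to the array percentile, and in RNA from whole plates fewer expressing cells and less RNA per cell cannot be told apart. Centred instead on the spike-in probes, the median change over all tested probes moved from -0.02 to -0.36 for serum against no serum and from 0.08 to -0.33 for cordycepin plus serum against no serum. The 9 fibroblast markers, among them Col1a1, Thy1 and Pdgfra, were well above background on every array and none was called. Of 7 macrophage and leukocyte markers 4, Cd68, Csf1r, Itgam and Cd14, were well above background on every array and tested. Ptprc, Emr1 and Lyz2 were well above background on 3, 1 and 4 of the 8 arrays. With cordycepin plus serum against serum, 3 of the 4 tested markers changed upward and 1 downward, and 1 was called higher. Their median change was 0.58, beside 0.10 for all tested probes. The log2 of the summed signal of the 7 lay at 3.85 to 4.26 without serum, 3.95 to 4.15 with serum and 4.78 to 5.12 with cordycepin plus serum, where Cd68, a lysosomal protein, was called higher by 3.04 over serum, and the part of this in the results below was not tested. Of 5 epithelial markers only Krt8 was tested.

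Of the 12 member probes 8 were tested, for 7 genes. Mx1 and Rsad2, the second probe of Irf1 and the second probe of Oas1a were not well above background on any array. Against serum alone, cordycepin plus serum left all 8 tested probes uncalled in limma, and 1 of them, Irf1, passed at an adjusted or an unadjusted p under 0.05. Over all probes in that comparison, 7.63% were called higher and 2.87% lower, and 7.36% were lower at an adjusted p under 0.05 at any fold change. Serum against no serum gave 1 member probe called lower, that of Oas1a, where 0.878% of all probes were called lower and 0.849% higher. At an unadjusted p under 0.05 there were 6 of the 8, beside 10.3% of all probes. Cordycepin plus serum against no serum gave 3 called lower, those of Irf1, Ifit1 and Oas1a, where 2.99% of all probes were called lower and 6.48% higher. With both Isg15 probes, 5 were lower at an adjusted p under 0.05 at any fold change, as were 5.95% of all probes. No member probe was called higher in any comparison. The median change of the 8 tested probes was 0.10, -0.88 and -0.91 in the 3 comparisons, beside 0.10, -0.02 and 0.08 for all tested probes. Of the 2 no serum arrays, replicate 2 was the highest array for 6 of the 8 probes and replicate 1 for 0, beside 8.05% and 11.3% of all tested probes. The Oas1a probe entered the test through the no serum group alone, so the filter itself favoured a difference. Without the Oas1a probe, the medians of the 7 probes well above background on every array were 0.10, -0.68 and -0.87. Isg15 enters these with 2 probes. With the brightest probe of each gene only, the medians of the 6 genes left were 0.07, -0.53 and -0.54. The 2 comparisons with no serum share the 2 no serum arrays, and the comparisons with serum or with cordycepin plus serum share those arrays as well, so they do not count as separate evidence.

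**Figure D2:**
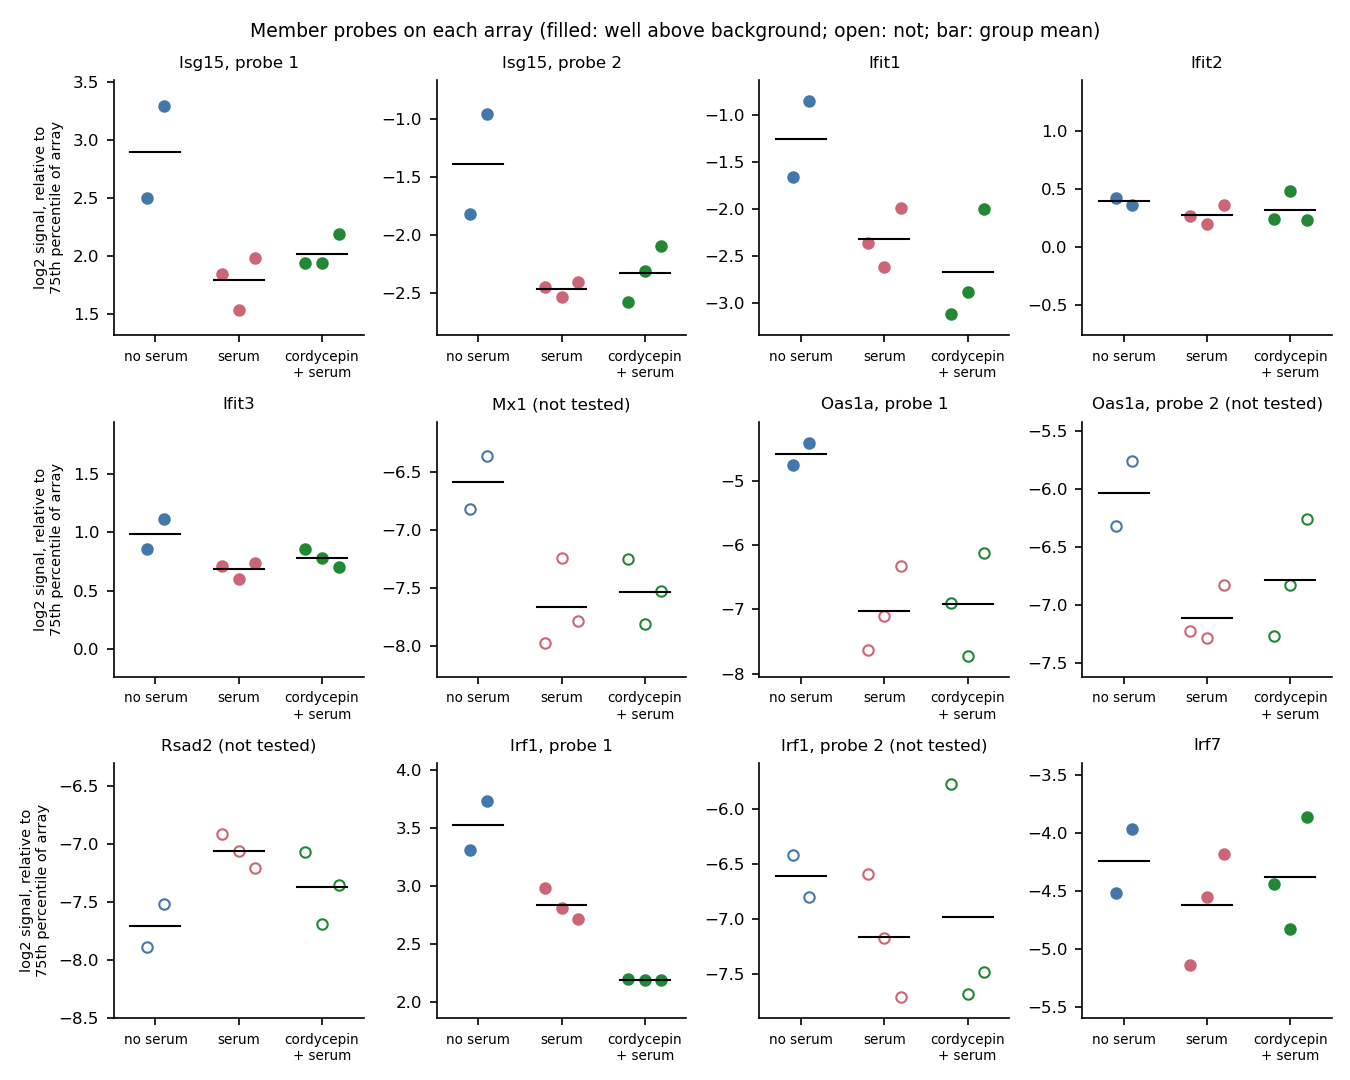
Level of each member probe on each array (y axis: log2 signal relative to the 75th percentile of the array; x axis: group); points are arrays, filled where well above background, and bars are group means. The groups of Irf1 do not overlap, and the no serum arrays of Isg15, Ifit1 and the tested Oas1a probe lie above the other 6 arrays.

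Irf1, the transcription factor, was the member whose 3 groups were separated in full. Its tested probe lies on mouse build mm9 at chr11:53590746-53590805. The level was 3.31 and 3.73 on the no serum arrays, 2.98, 2.81 and 2.72 on the serum arrays and 2.20, 2.19 and 2.19 on the cordycepin plus serum arrays. Both no serum arrays stood above every serum array, and every serum array stood above every cordycepin plus serum array. The means were 3.52 ± 0.30 (SD, n = 2), 2.84 ± 0.13 (SD, n = 3) and 2.19 ± 0.01 (SD, n = 3). With cordycepin plus serum, Irf1 was 0.64 lower on the log2 scale than with serum (log2 fold change -0.64, SE 0.14, adjusted p = 0.0119), a 1.56-fold difference below the size needed for a call. Serum against no serum gave -0.68 (SE 0.15), a difference that did not pass the test (adjusted p = 0.0711). From no serum to cordycepin plus serum Irf1 fell by 1.33 (SE 0.15, adjusted p = 0.000779), or 2.51-fold, and was called lower. Over the alternative settings the last change ranged from -1.74 to -1.12. With spike-in centring it was -1.74 but lost the call (adjusted p = 0.0617), and the change against serum was then -0.71 with an adjusted p rounding to 1.00. The probe for the other annotated Irf1 transcript, 1071 bases further along the same strand, stayed at background on all 8 arrays.

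Isg15 encodes a ubiquitin-like protein that is attached to other proteins after interferon. Both of its probes were well above background on every array, and their changes were alike. The probe at chr4:155573649-155573708 (mm9) read 2.49 and 3.29 without serum, 1.84, 1.54 and 1.98 with serum, and 1.93, 1.94 and 2.19 with cordycepin plus serum. The no serum arrays were the highest and did not overlap the others, whereas the serum and the cordycepin plus serum arrays overlapped. Serum against no serum gave -1.11 (SE 0.24, adjusted p = 0.068), which did not pass the test, but the probe was called lower with another background correction, normexp (-1.12, adjusted p = 0.0246), and when only probes well above background on all 8 arrays were tested (adjusted p = 0.0475). Cordycepin plus serum against no serum gave -0.87 (SE 0.24, adjusted p = 0.0472), short of the fold change required. Cordycepin plus serum against serum gave 0.23, with a 95% interval of -0.27 to 0.73 (adjusted p = 0.498). The other Isg15 probe, which the files do not place on the genome, gave -1.07, -0.94 and 0.13 in the same order (adjusted p = 0.0837, 0.0396 and 0.715), and with quantile normalisation the second was called, at -1.07 (adjusted p = 0.0303). On both probes no serum replicate 2 was the highest array, at 3.29 and -0.95. Without no serum replicate 1, so that replicate 2 stood alone, both probes were called lower with serum, by 1.51 and 1.51, and with cordycepin plus serum, by 1.27 and 1.37. Without no serum replicate 2 neither was called, and the serum changes were -0.71 and -0.64.

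Ifit1, Ifit2 and Ifit3 encode related proteins with tetratricopeptide repeats, of which Ifit1 binds foreign RNA by its 5′ end. They lie close to one another on chromosome 19. Ifit1 (chr19:34723796-34723855, mm9) read -1.66 and -0.85 without serum, -2.36, -2.62 and -1.99 with serum, and -3.12, -2.88 and -2.00 with cordycepin plus serum. The no serum arrays were again the highest, and the other groups overlapped. From no serum to cordycepin plus serum Ifit1 fell by 1.41 (SE 0.37, adjusted p = 0.0379), or 2.66-fold. Serum against no serum gave -1.07 (SE 0.37, adjusted p = 0.295), and cordycepin plus serum against serum gave -0.34 (SE 0.33, adjusted p = 0.51). The call of Ifit1 was lost with normexp (-0.89, short of the fold change required) and without the filter on dim probes (adjusted p = 0.105). It was also lost without no serum replicate 2 (-1.01, adjusted p = 0.252), without cordycepin plus serum replicate 1 or 2 (adjusted p = 0.113 and 0.103) and without serum replicate 1 (adjusted p = 0.0567).

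Ifit2 (chr19:34650244-34650303, mm9) lay between 0.19 and 0.48 on all 8 arrays, with no group apart from the others. Its changes were 0.04, -0.12 and -0.08 in the order cordycepin plus serum against serum, serum against no serum and cordycepin plus serum against no serum. The 95% intervals of these were -0.22 to 0.30, -0.41 to 0.18 and -0.37 to 0.22, so that a change of 1 on the log2 scale lay outside each. Ifit3 (chr19:34663105-34663164, mm9) read 0.86 and 1.11 without serum, 0.71, 0.60 and 0.74 with serum, and 0.86, 0.78 and 0.70 with cordycepin plus serum. The no serum arrays stood above the serum arrays, but the difference of -0.30 (SE 0.13) did not pass the test (adjusted p = 0.454).

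Oas1a, Mx1 and Rsad2 are antiviral effectors: Oas1a makes the second messenger that activates RNase L, Mx1 is a dynamin-like GTPase and Rsad2, or viperin, is a radical SAM enzyme. The tested Oas1a probe (chr5:121326738-121326797, mm9) was well above background on both no serum arrays and on none of the other 6. It read -4.76 and -4.40 without serum, -7.63, -7.11 and -6.33 with serum, and -6.90, -7.72 and -6.13 with cordycepin plus serum. The signal without serum was thus the only measured level, and the other groups have a bound. Set against the lowest signal judged well above background on each array, Oas1a was at least 1.79-fold lower with serum than without. With cordycepin plus serum it was at least 1.62-fold lower than without serum. These bounds carry no test. The 2 calls rest on limma changes of -2.44 with serum (adjusted p = 0.0478) and -2.34 with cordycepin plus serum (adjusted p = 0.0143). Both changes use signals not well above background, for a probe that entered the test through the no serum group alone. With normexp, both calls were lost and the changes were -0.21 and 0.03, and without the filter on dim probes the call with serum was lost (adjusted p = 0.169). The second Oas1a probe lies 21600 bases away on mm9, further than the 11289 bases that RefSeq gives for the gene, and close relatives of Oas1a are neighbours on chromosome 5, so which Oas1 gene each probe reports is uncertain. That second probe, not well above background anywhere, read -6.32 and -5.76 without serum and -7.28 to -6.26 on the other arrays. Mx1 read -6.82 and -6.36 without serum and -7.97 to -7.24 on the other arrays. Rsad2 read -7.89 and -7.52 without serum, -7.20 to -6.91 with serum and -7.69 to -7.07 with cordycepin plus serum. Its no serum arrays thus lay below its serum arrays, unlike those of the other members. All of these were below the background limit and were not tested. The array accession of Mx1 was the 1 of 12 that RefSeq's table did not hold.

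Irf7, the factor that amplifies interferon production, was well above background on every array, with a wide spread within each group. It read -4.52 and -3.97 without serum, -5.13, -4.55 and -4.18 with serum, and -4.44, -4.82 and -3.86 with cordycepin plus serum, and the 3 groups overlapped. The changes were 0.25, -0.38 and -0.13 (adjusted p = 0.629, 0.994 and 0.843), with SEs of 0.31, 0.35 and 0.35, so a change of up to 0.97 with cordycepin against serum lay within the 95% interval. The 5 other Irf factors that were tested gave no call. At an unadjusted p under 0.05 they numbered 3 with cordycepin against serum, 0 with serum and 1 with cordycepin plus serum against no serum, beside 32.0%, 10.3% and 27.3% of all tested probes. Irf3, the partner of Irf7 in switching on interferon genes, was 4.91 and 4.71 without serum, 5.13, 4.91 and 5.17 with serum, and 4.53, 4.58 and 4.51 with cordycepin plus serum. All 3 cordycepin plus serum arrays were below all serum arrays, a change of -0.53 (SE 0.12, adjusted p = 0.0139) that was too small for a call. Irf4 and Irf8, factors of immune cells, were not tested.

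**Figure D3:**
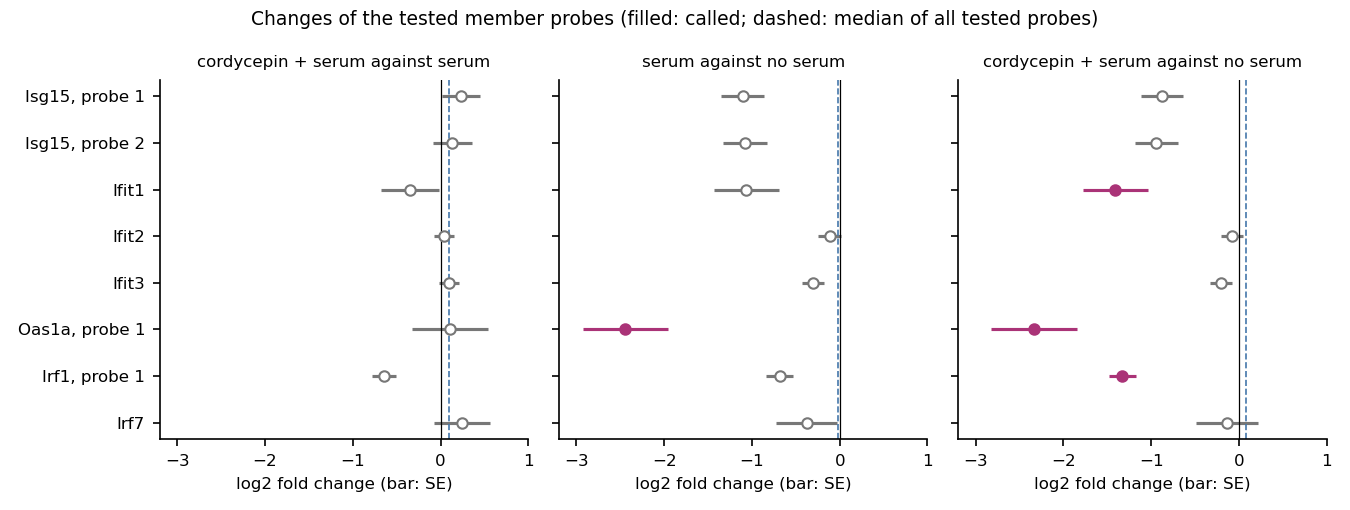
Log2 fold change (x axis) of the 8 tested member probes in the 3 comparisons, with bars of 1 SE; filled points were called and the dashed line is the median of all tested probes. Against serum, no member was called with cordycepin plus serum and Irf1 lay lowest at -0.64; against no serum, Irf1, Ifit1 and Oas1a were called lower.

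The arrays of no serum against serum also separated for members that were not called. Of the 8 tested member probes, 6 had both no serum arrays above all serum arrays, where 13.6% of all tested probes did. Among probes well above background on every array the count was 5 of 7, beside 11.7% of such probes. For cordycepin plus serum below no serum the count was 5 of 8, beside 16.0% of all tested probes, and among probes well above background on every array 4 of 7, beside 15.5%. Isg15 enters these counts with 2 probes. With the brightest probe per gene, among genes well above background on every array, the 2 counts were 4 of 6 and 3 of 6. With cordycepin plus serum below serum, the count was 1 of 8, Irf1, beside 13.4% of all tested probes.

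Other interferon-stimulated effectors were taken from a list of textbook genes, represented by the brightest probe of each gene, and 49 of the 58 on the array were tested. Serum against no serum gave 0 calls among these in limma, with 15 of the 49 at an unadjusted p under 0.05, beside 10.3% of all tested probes. Their median change was -0.20, beside -0.02 for all tested probes. In 20 of the 49 both no serum arrays were above all serum arrays, beside 13.6% of all tested probes. Among those well above background on every array the count was 17 of 44, beside 11.7% of such probes. A single array, no serum replicate 2, was the highest for 21 of the 49, beside 8.05% of all tested probes with a value on every array. Oasl2, a relative of Oas1a, read -3.55 and -2.50 without serum and -5.35, -4.66 and -4.11 with serum, a change of -1.68 (SE 0.50) that did not pass the test (adjusted p = 0.189). Usp18, the protease that removes Isg15 from proteins, read -3.61 and -2.86 without serum and -4.68, -4.46 and -4.39 with serum, a change of -1.27 (adjusted p = 0.242). These 2 genes were picked after their values were seen. With the array row on the slide as a block, 1 effector was called lower, Oasl2 (-1.86, adjusted p = 0.0081), and without no serum replicate 1 there were 2, Mx2 and Ccl5. Cordycepin plus serum against no serum gave 1 of the 49 effectors called lower, beside 2.99% of all tested probes. This was Mx2, the relative of Mx1. It was well above background on both no serum arrays, on 2 of 3 with serum and on none with cordycepin, and was at least 2.69-fold lower. Mx2 entered the test through the no serum group alone, so the filter itself favoured a difference. Its no serum arrays themselves were far apart, at -4.75 and -2.96. No effector was called lower in this comparison with normexp, without the filter on dim probes, among probes well above background on all 8 arrays, without no serum replicate 2 or without any 1 of the cordycepin plus serum arrays.

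**Figure D4:**
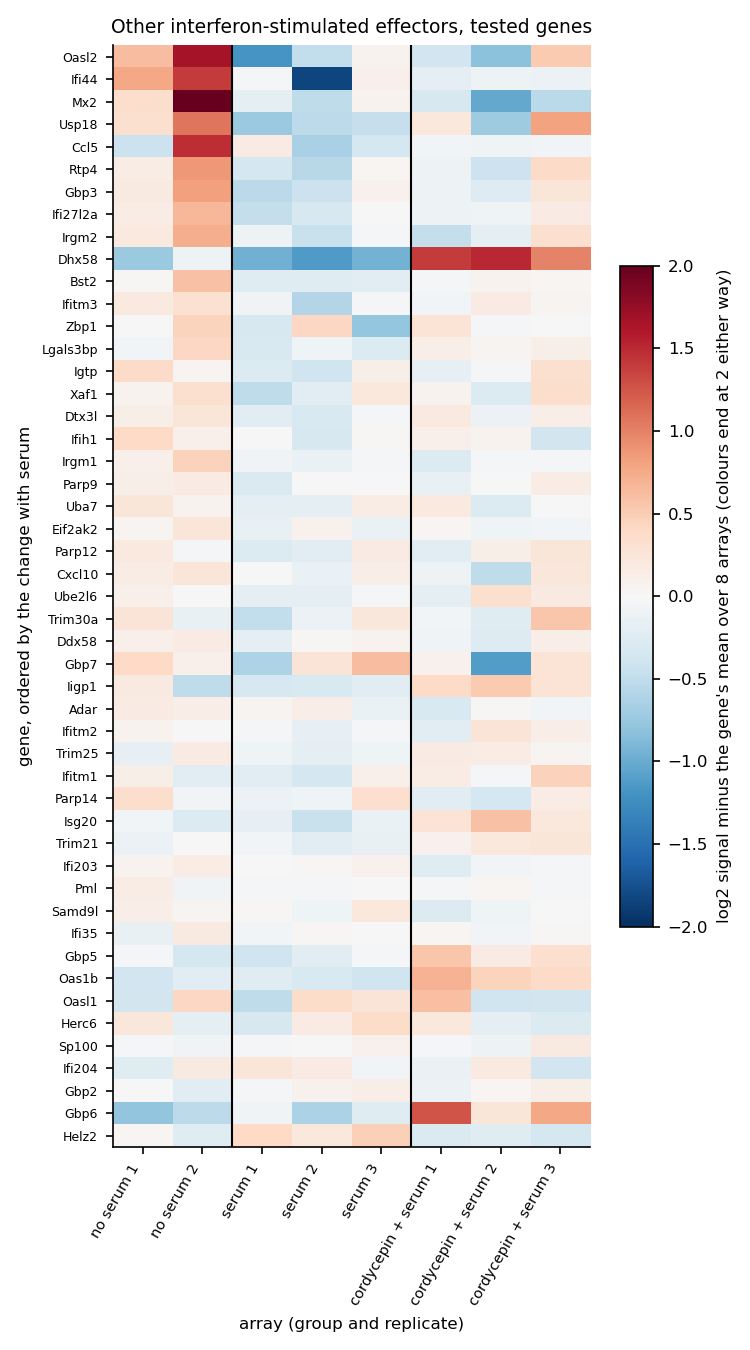
Level of the 49 tested effectors on the 8 arrays (columns: arrays by group and replicate; rows: genes ordered by their change with serum), as log2 signal minus the mean of the gene over the 8 arrays. Oasl2, Ifi44, Mx2 and Usp18 are highest on no serum replicate 2, and Dhx58 is highest on the 3 cordycepin plus serum arrays.

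With cordycepin plus serum against serum, 2 of the 49 effectors were called higher and 0 lower, beside 7.63% and 2.87% of all tested probes. The median change of the 49 was 0.21 beside 0.10 for all tested probes. Dhx58, a helicase of the RIG-I family that also stands in the list of sensors, read -3.72, -3.88 and -3.69 with serum and -1.35, -1.24 and -1.76 with cordycepin plus serum. It rose by 2.31 (SE 0.20, adjusted p = 0.000126), and against no serum by 1.72 (adjusted p = 0.00144). Gbp6, a guanylate-binding protein, rose by 1.07 (adjusted p = 0.0229), but its other tested probe changed by 0.01, so the probes disagree. Against no serum, the same 2 genes were called higher, Gbp6 by 1.41, beside 6.48% of all tested probes, whereas with spike-in centring 0 effectors were. Against serum, Dhx58 was the 1 effector called higher with normexp, with spike-in centring and without the filter on dim probes. The number of effectors called higher against serum lay between 1 and 3 when any 1 array was left out, and was 1 without cordycepin plus serum replicate 1 or 3 or without serum replicate 2 or 3. Against no serum it was 1 without either no serum array.

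Among 17 tested interferon receptors and Jak-Stat genes, 1 was called higher and 2 lower with cordycepin plus serum against serum, beside 7.63% and 2.87% of all tested probes. Ptpn6, a phosphatase that dampens Jak signalling, rose by 1.58 (adjusted p = 0.000461). Socs1 and Socs3 are feedback inhibitors of Jak kinases. Socs1 read 1.75, 1.29 and 1.91 with serum and -0.94, -0.66 and -0.63 with cordycepin plus serum, and fell by 2.39 (SE 0.18, adjusted p = 7.5e-05). Socs3 fell by 1.17 (SE 0.26, adjusted p = 0.0158). Against no serum, Ptpn6 was called higher by 1.65 and Socs1 lower by 2.87 (adjusted p = 0.000984 and 9.7e-05). Of all tested probes, 6.48% were called higher and 2.99% lower in that comparison.

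Stat2, which with Irf9 carries the signal to the ISRE, read 1.68 and 1.77 without serum, 0.94, 0.99 and 1.11 with serum, and 1.16, 1.15 and 1.29 with cordycepin plus serum. The no serum arrays were above all others, with a change of -0.71 for serum against no serum (SE 0.12, adjusted p = 0.0213) that was below the size needed for a call, and 0.19 for cordycepin plus serum against serum (adjusted p = 0.254). Irf9 gave 0.39, -0.21 and 0.19 in the order cordycepin plus serum against serum, serum against no serum and cordycepin plus serum against no serum (adjusted p = 0.122, 0.955 and 0.527). Ifnar1 gave 0.67 with cordycepin plus serum against serum (SE 0.14, adjusted p = 0.0126), short of a call, but its other 2 tested probes gave -0.10 and -0.06. No gene of this list was called for serum against no serum, and 2 of the 17 had an unadjusted p under 0.05, beside 10.3% of all tested probes.

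Of the 22 tested nucleic acid sensors and adaptors, 1, Dhx58, was called higher and 0 lower with cordycepin plus serum against serum. Of all tested probes, 7.63% were called higher and 2.87% lower. The median change of the 22 was 0.00. Against no serum, Ticam1, the adaptor of Toll-like receptor 3, was also called, lower by 1.00 (SE 0.11, adjusted p = 0.00071), where 2.99% of all tested probes were called lower. Of the 15 antigen presentation genes that Irf1 and Nlrc5 are known to control, all tested, 1 was called higher with cordycepin plus serum against serum, beside 7.63% of all tested probes. This was Psmb8, an immunoproteasome subunit, which was well above background on the 3 cordycepin plus serum arrays alone. It entered the test through that group, so the filter itself favoured a difference. Psmb8 was at least 5.22-fold higher than with serum and at least 6.09-fold higher than without serum. The median of the list was 0.28 beside 0.10 for all tested probes, and no gene of the list was called for serum against no serum.

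Of 13 type I interferon genes on the array 8 were tested, and all 8 were called higher with cordycepin plus serum against serum, beside 7.63% of all tested probes. Their median change was 3.10, while none was called for serum against no serum. The 6 that were well above background on every array were all among these. Ifna13 entered the test through the cordycepin plus serum group alone, so the filter itself favoured a difference. Ifne entered through the no serum group alone, so its call against serum used signals that were not all well above background in either group. Ifna1 rose by 2.71 (SE 0.18, adjusted p = 3.9e-05), and Ifna13 was at least 14.0-fold higher. The Ifna genes are near-identical copies, so their probes may share transcripts and are not separate measurements. Against no serum, cordycepin plus serum gave 7 of the 8 called higher, beside 6.48% of all tested probes. The smallest change of the 8 was 0.54. Ifnb1 was not well above background on all arrays of any group and was not tested.

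**Figure D5:**
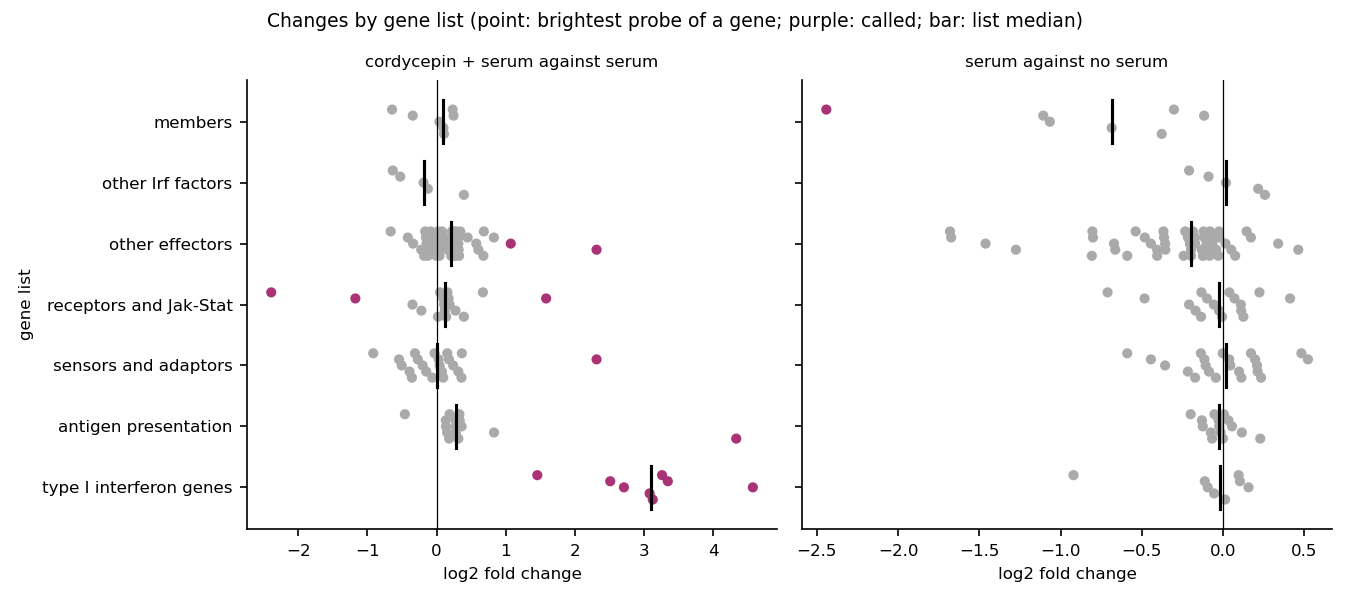
Log2 fold change (x axis) of each tested gene, by its brightest probe, in 7 gene lists for cordycepin plus serum against serum (left) and serum against no serum (right); purple points were called and bars are list medians. The medians with cordycepin are 3.10 for the type I interferon genes, 0.10 for the members and 0.21 for the other effectors. With serum the members' median is -0.68. This includes Oas1a, which entered the test through the no serum group alone, and over the 6 other genes it is -0.53.

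The genes whose levels followed the members most closely over the 8 arrays were found by the root mean square difference of mean-centred log2 levels, among 13418 genes with a RefSeq mRNA. For Irf1 these were Rasl11b (difference 0.11), Zfp324 (0.12) and 2810408M09Rik (0.16). Each of these was highest without serum and lowest with cordycepin plus serum, as Irf1 was, with mean levels for Rasl11b of -0.04, -0.93 and -1.50 in the order no serum, serum, cordycepin plus serum. For Oas1a the nearest gene was Oasl2 (0.44), another gene of its own family, followed by Grifin (0.54) and Olfr978 (0.65). The Oas1a probe was not well above background on 6 of the 8 arrays, so this likeness was measured largely on background signal. For Ifit1 they were Npy1r (0.30), Zfp503 (0.31) and Fancd2 (0.31). The differences of Ifit1 and Oas1a from their nearest genes are larger than that of Irf1, and all these values share the same 8 arrays.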

How the data were processed

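The deposited files hold scanner intensity per spot of 1-colour Agilent mouse 60K arrays, which the authors extracted with Feature Extraction 10.7.3.1; per the file headers it removed a fitted spatial surface and a multiplicative trend, and probe positions refer to mm9. The study's methods name limma and state no normalisation. Each array held 62976 spots, 3671 of them controls, and all 8 arrays lay on 1 slide read in 1 scan.

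Control and outlier spots were left out, log2 of the processed signal was taken, the 75th percentile of each array was subtracted and spots of a probe were averaged. Group means were compared in limma 3.58.1 (R 4.3.3), with 1 mean per group, no covariate and a spread shared by 8 arrays. Two-sided p-values were corrected by the Benjamini-Hochberg method over 30859 probes. The fit was tested on simulated data. A bound for a probe not well above background in a group uses, per array, the higher of its own signal and the lowest signal well above background.

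The members and the gene lists were chosen with earlier results of these data known. Named genes were, besides the members, Stat2, Irf9, Irf3, Ifnar1 and up to 3 called genes per list and direction, by brightest probe. 1 further result is not reported here. Of the 171 genes listed, 6 had no probe under their names and 6 stood in 2 lists. The labels call the replicates independent. The number of arrays limits the precision. Alternatives were normexp (offset 50), quantile normalisation, spike-in centring, other filters, no minimum fold change, blocks for replicate number and array row, and each array left out.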

Additional observations from a re-analysis of the deposited data

How the results depend on the processing

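Of 381 values of the tested member probes under the alternatives, 352 kept their call status, 16 lost a call, 12 gained one and 1 turned: Oas1a in cordycepin plus serum against no serum, at 0.030 with normexp. Member probes called lower were 0, 1 and 3 for cordycepin plus serum against serum, serum against no serum and cordycepin plus serum against no serum. They became 1, 1 and 5 with no minimum fold change, 0 for the second without the filter on dim probes, and 1 for the third with normexp. With any 1 array left out they ranged from 0 to 0, 0 to 2 and 1 to 4, and higher calls stayed at 0. For serum against no serum the call of Oas1a was lost without cordycepin plus serum replicate 1, serum replicate 1 or 2, or either no serum array, and in the third comparison 1 call was left without no serum replicate 2.

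Over all probes, cordycepin plus serum against serum gave 2356 higher and 886 lower, with normexp 919 and 402, with spike-in centring 1505 and 405, with probes well above background on all 8 arrays 1117 higher, and with no minimum fold change 3704 and 2271. Left-out arrays gave 2164 to 2394 and 814 to 937. Serum against no serum gave 262 and 271, with normexp 171 and 59, with spike-in centring 48 and 135, without the filter 133 and 88, and with all 8 arrays above background 142 lower. Left-out arrays gave 122 to 244 and 143 to 483, the limits being without no serum replicate 2 (122 and 143) and without replicate 1 (483). Cordycepin plus serum against no serum gave 1999 and 923, with normexp 1063 and 338, with spike-in centring 776 and 578, with all 8 arrays above background 1022 higher, and with no minimum fold change 1837 lower. Left-out arrays gave 1583 to 2053 and 822 to 1051. The higher share of calls for serum against no serum moved from 49.2% to 74.3% with normexp and 26.2% with spike-in centring. With quantile normalisation it moved from 72.7% to 59.7% and from 68.4% to 58.1% in the comparisons of cordycepin plus serum, and with spike-in centring from 68.4% to 57.3% in the last. The causes were not tested.

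With the replicate block, member probes called lower were 0, 1 and 4, the added one being the unplaced Isg15 probe (-1.01, adjusted p = 0.0371), 1 effector was called lower for serum against no serum, Oasl2 (-2.02, adjusted p = 0.043), Oasl2 and not Mx2 was called for cordycepin plus serum against no serum, and all probes called were 2344 and 885, 254 and 295, and 1975 and 985. Deviations of same-numbered arrays from their group means correlated at r = -0.17 to 0.23, so the numbers do not pair the arrays. Mx1 and Rsad2 were not well above background, so their changes could not be measured.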

Other observations

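The array with the highest level was no serum replicate 2 for 6 of the 8 tested member probes and for 21 of the 49 tested effectors (42.9%), while it was the highest array for 8.05% of all tested probes with a value on every array. No serum replicate 1 was the highest for 0 member probes, 6 effectors (12.2%) and 11.3% of all tested probes. Among the effectors, Ccl5, a chemokine picked after its values were seen, read -0.68 on no serum replicate 1 and 1.24 on replicate 2, against -0.90 to -0.08 with serum.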
